A study of Oryza sativa with 12 samples.

Results

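The rice lncRNA tables held 41 antisense loci with 3 or more transcripts, out of 1039 loci in all. A locus was included if it listed at least 3 transcripts and every one of them was classed as antisense lncRNA. The 41 loci held 163 of the 1485 listed transcripts. There were 20 loci with 3 transcripts, 11 with 4, 3 with 5, 6 with 6 and 1 with 8. No expression value entered the choice. The class was taken as deposited and could not be checked, because the files do not pair identifiers with genes or positions and 0 of the identifiers matched the RefSeq rice gene table. For the same reason the leaf label was not checked against marker genes, and loci and transcripts are named by identifier only.

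The samples were leaves of Oryza sativa at the booting stage, when the young panicle is still enclosed in the leaf sheath, from the cultivars Kongyu131 and Dongnong422. Each cultivar had a control and a cold group of 3 libraries, which makes 4 groups and 12 libraries. Plants of all groups grew in the natural environment, and the cold treatment was an incubator at 17 °C for 13 days with 16 h of light and 8 h of dark. The labels attach this treatment text to the control libraries too, and do not say at what temperature and where those plants stood, so temperature and incubator cannot be told apart. One leaf was taken per bucket. The labels do not say that replicates were separate plants, so the p-values below rest on a spread between libraries that could be technical. Over the 1036 loci tested, the mean correlation of a library's log2 sums with those of its replicates was 0.871 to 0.931. The 3 Dongnong422 control libraries, at 0.881, 0.871 and 0.882, were below all others, which were at 0.909 or more, and this group enters the cold comparison in Dongnong422, the average, the difference of effects and the cultivar comparison in control leaves.

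An antisense lncRNA is transcribed from the strand opposite another gene. In plants some are known to act on the gene they overlap, as the COOLAIR transcripts of Arabidopsis do at the flowering repressor FLC during cold. A locus with several transcripts can use alternative starts, splice sites or ends, and these transcripts share exons. Short reads from a shared exon do not say which transcript they came from, so Cufflinks divides them by a statistical model. For this reason each locus was described both by the sum of its transcripts and by the share of each transcript in that sum. Values are FPKM, fragments per kilobase of transcript scaled to the number of mapped fragments of the library. The depth behind an FPKM value is unknown here. In leaves, fewer cells of a type and less RNA per cell cannot be told apart.

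The 41 loci were expressed at low levels, but in nearly all libraries. Their mean sum over the 12 libraries ranged from 0.532 to 10.4 FPKM with a median of 1.36, against a median of 1.20 over all 1039 loci. Only 3 loci reached 5 FPKM on average, 12 reached 2 FPKM and 8 were under 1 FPKM. In all 12 libraries, 39 of the 41 loci (95.1%) stood at 0.1 FPKM or more, compared with 684 of all loci (65.8%). These shares were not tested against each other. Within a library, the median sum of the 41 loci was 1.17 to 1.60 FPKM.

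The locus with the highest mean was XLOC_016981, with 4 transcripts. Its sum was 18.4, 18.1 and 17.1 FPKM in control and 15.1, 12.9 and 14.6 in cold libraries of Kongyu131. In Dongnong422 it was 6.53, 6.89 and 5.86 FPKM in control and 3.85, 2.57 and 3.17 in cold libraries. The order was Kongyu131 control, Kongyu131 cold, Dongnong422 control and Dongnong422 cold, with no overlap between neighbours.

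XLOC_022039, also with 4 transcripts, followed. Its sum was 13.0, 12.6 and 12.1 FPKM in control and 8.00, 9.10 and 10.8 in cold libraries of Kongyu131, 11.7, 9.24 and 9.49 in Dongnong422 control and 3.75, 2.85 and 3.72 in Dongnong422 cold libraries. Here the Dongnong422 cold group stood alone at the bottom, while Dongnong422 control and Kongyu131 cold overlapped. Nearly all of the sum came from 2 of its transcripts, LNC_000574 with a mean of 4.74 FPKM and LNC_000572 with 3.80 FPKM.

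XLOC_010057, with 3 transcripts, was next in mean level. It stood at 5.36, 4.71 and 5.98 FPKM in control and 3.27, 4.81 and 3.91 in cold libraries of Kongyu131, 6.88, 4.19 and 6.19 in Dongnong422 control and 8.41, 9.26 and 12.9 in Dongnong422 cold libraries. The Dongnong422 cold libraries were above all others and the other groups overlapped their neighbours.

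The locus with the most transcripts, XLOC_014980, lists 8 and summed to 1.64 to 3.80 FPKM over the 12 libraries. Among the loci with 6 transcripts, the highest means were those of XLOC_023506 (2.73 to 8.12 FPKM) and XLOC_036460 (2.78 to 7.47 FPKM). In all of these loci every pair of neighbouring groups overlapped. Over the 41 loci, 20 of 123 neighbouring pairs in the order of group means did not overlap. No such count is given over all loci, so it cannot be read as a trait of these 41. The steadiest loci were XLOC_019487 (1.82 to 2.76 FPKM), XLOC_024027 (1.21 to 2.11 FPKM), XLOC_048670 (1.42 to 2.62 FPKM) and XLOC_001277 (0.823 to 1.60 FPKM), which stayed within 2-fold over all 12 libraries and were picked out after their values were seen.

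**Figure D1:**
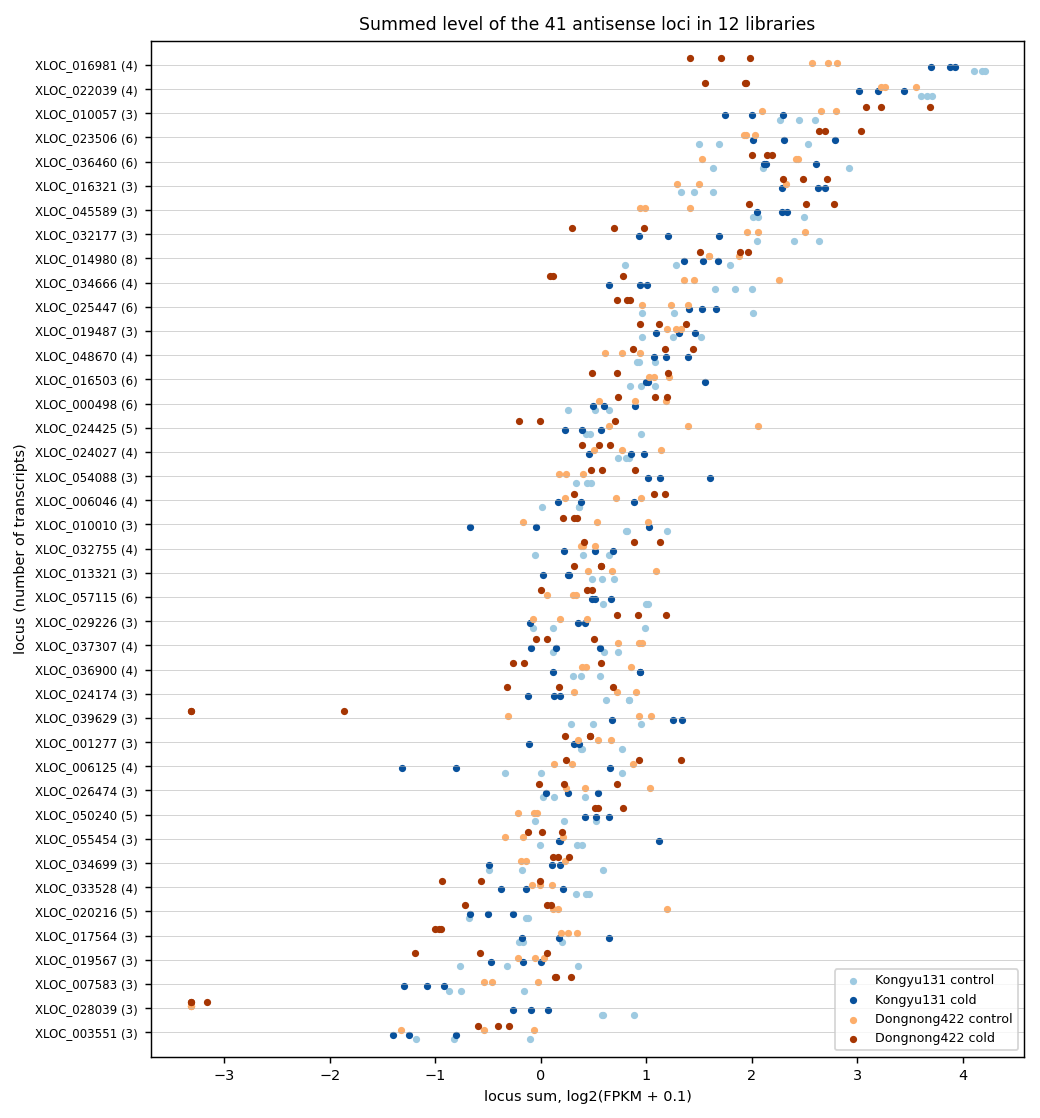
The summed level of each of the 41 loci on a log2(FPKM + 0.1) axis, with 1 point per library coloured by group and the number of transcripts in brackets. Most loci have their 12 points close together, and XLOC_028039 and XLOC_039629 have Dongnong422 points at the left edge.

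Sums were far steadier between replicates than the transcripts they were made of. The SD within groups, on the log2(FPKM + 0.1) scale, had a median of 0.30 over the 41 sums (0.13 to 0.68) and of 0.80 over the 163 transcripts (0.10 to 2.18). Single-transcript loci in the same range of mean FPKM had a median of 0.50 (n = 549). The sum varied less than every one of its transcripts in 31 of 41 loci, and less than the median of its transcripts in 40 of 41. The exception was XLOC_032177, at 0.33 for the sum and 0.31 for its median transcript. In XLOC_036460 the sum had an SD of 0.44 and its median transcript 1.56. These SDs are a description, with no test.

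**Figure D2:**
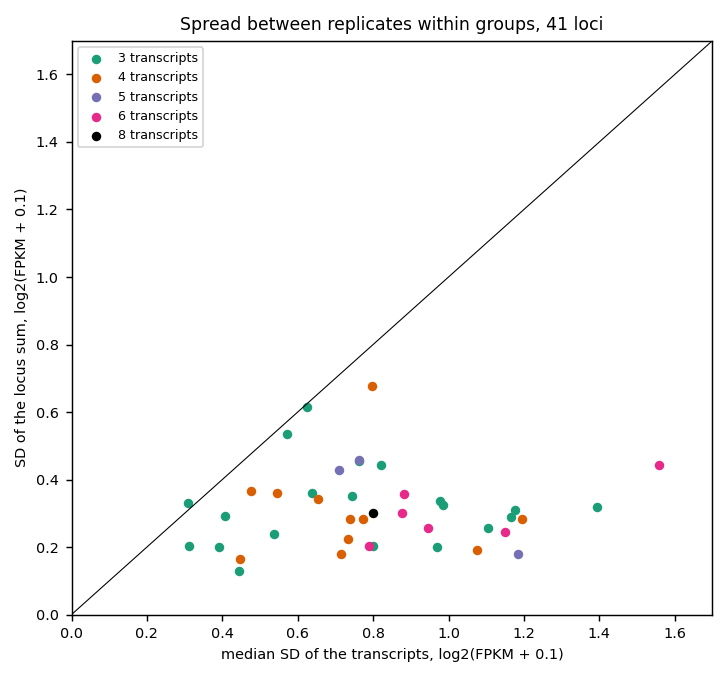
The SD between replicates of each locus sum (vertical axis) against the median SD of its transcripts (horizontal axis), both on the log2(FPKM + 0.1) scale and pooled over the 4 groups, with 1 point per locus coloured by its number of transcripts and a line of equality. Of the 41 loci, 40 lie below the line.

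The wide spread of single transcripts came with values that switched between a level and nearly nothing. Of 1956 transcript values, 392 (20.04%) were above 0 but under 0.001 FPKM, and in 98.0% of these the locus itself was at 0.1 FPKM or more. Such values occurred in 101 of the 163 transcripts and numbered 22 to 41 per library. Values of this kind made up 16.7% in all loci with 2 or more transcripts, which include these 41, and 0.684% in single-transcript loci. In 179 of 652 combinations of transcript and group (27.5%), 1 library was under 0.001 FPKM while another of the same group was at 0.1 FPKM or more. Exact zeros were rarer, with 15 values (0.767%), all in XLOC_028039 in Dongnong422. They made up 3.55% of values in all loci with 2 or more transcripts and 9.69% in single-transcript loci.

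Within a locus, pairs of transcripts moved together and in opposite directions between replicates. Over 274 pairs of transcripts of the same locus, the median correlation of their deviations from the group means was −0.081, with 49 pairs below −0.5 and 35 above 0.5. These are descriptions over 12 libraries, in which the pairs share fragments. The lincRNA loci with 3 or more transcripts, which lie between genes, had a median of −0.050 over 572 pairs.

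Under cold, the sums of 3 of the 41 loci changed in Kongyu131 (7.32%), with 2 higher and 1 lower. Across all 1036 loci tested, 12.0% were called in this comparison, 3.28% higher and 8.69% lower. With median-ratio scaling of the libraries the split over all loci was 59 higher and 59 lower, against 34 and 90 as deposited. The threshold for a call was an adjusted p under 0.05 in limma (Benjamini-Hochberg, over all loci), and log2 changes are differences of log2(FPKM + 0.1). The share among the 41 loci was below that background, and the median change was −0.03 over the 41 loci and −0.09 over all loci. At an unadjusted p under 0.05 there were 6 of the 41, and 297 of all 1036.

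XLOC_016321 rose in Kongyu131, from 2.63, 3.01 and 2.42 FPKM in control to 6.37, 4.78 and 6.09 FPKM in cold libraries. The groups did not overlap, and the change was 1.06 on the log2 scale (SE 0.275, limma adjusted p = 0.0326, higher in 3 of 3 libraries), with all 3 transcripts higher on average. LNC_000410 made up 1.55 of the 3.06 FPKM rise, and it held most of the sum in Kongyu131 cold replicate 3 only. XLOC_054088 rose from 1.25, 1.16 and 1.29 FPKM to 2.95, 1.92 and 2.09 FPKM, again with no overlap (log2 change 0.83, SE 0.217, limma adjusted p = 0.0329). On average 2 of its transcripts were higher and 1 lower. XLOC_032177 fell from 5.18, 6.12 and 4.05 FPKM to 1.81, 2.20 and 3.12 FPKM. Its change was −1.09 on the log2 scale (SE 0.281, limma adjusted p = 0.0326), and all 3 of its transcripts were lower.

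These 3 calls depended on single libraries. The call of XLOC_016321 was lost when any 1 of the 6 Kongyu131 libraries was left out (adjusted p 0.0640 to 0.110). That of XLOC_054088 was lost with any of them but cold replicate 3 left out (0.0623 to 0.115), and that of XLOC_032177 with replicate 1 or 2 of either group left out (0.0817 to 0.115).

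In Dongnong422, 8 of the 41 sums (19.5%) changed under cold, 2 of them higher and 6 lower, where 12.8% of all loci were called, 4.34% higher and 8.49% lower. At an unadjusted p under 0.05 there were 14 of the 41, and 297 of all 1036. After median-ratio scaling of the libraries the split was 5 higher and 6 lower (26.8%). Over all loci it was then 67 higher and 71 lower (13.3%), against 45 and 88 as deposited. The median change was −0.12 over the 41 loci and −0.09 over all loci.

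XLOC_022039 fell from 10.1 ± 1.32 to 3.44 ± 0.508 FPKM (mean ± SD, n = 3), a change of −1.53 (SE 0.202, limma adjusted p = 0.00235). It was lower in 3 of 3 libraries, and its transcript LNC_000574 accounted for −3.95 of the −6.69 FPKM. The highest mean share was that of LNC_000574 in Dongnong422 control (52.7%) and of LNC_000572 in Dongnong422 cold libraries (60.4%). In Kongyu131 the same sum changed by −0.44 (adjusted p = 0.184). XLOC_045589 rose from 2.56, 1.88 and 1.83 FPKM to 3.83, 6.77 and 5.62 FPKM, with all 3 transcripts higher (1.31, SE 0.257, limma adjusted p = 0.0120). In Kongyu131 it was at 4.51 ± 0.901 and 4.59 ± 0.478 FPKM in control and cold libraries.

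XLOC_050240, with 5 transcripts, rose from 0.758, 0.877 and 0.857 FPKM to 1.62, 1.36 and 1.33 FPKM (0.72, SE 0.208, limma adjusted p = 0.0445). On average 4 of its transcripts were higher and 1 lower. XLOC_039629 went from 1.80, 0.704 and 1.96 FPKM in Dongnong422 control to 0.174 FPKM in 1 cold library and under 0.001 FPKM in the other two. The fitted change of −3.39 (SE 0.464, limma adjusted p = 0.00286) depended on the pseudocount, at −5.69 with 0.01 FPKM and −1.20 with 1 FPKM, and was called with each.

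The other 4 that fell are given because the count was small, after their values were seen. XLOC_016981 fell by 1.00 on the log2 scale (SE 0.196, limma adjusted p = 0.0120), and XLOC_032177 by 1.52 (SE 0.281, limma adjusted p = 0.0113). In each of them 1 transcript was higher on average. XLOC_034666 went from 4.68, 2.47 and 2.64 FPKM to 0.961, 0.981 and 1.61 FPKM, with all 4 transcripts lower (−1.37, limma adjusted p = 0.0154). XLOC_017564 went from 1.17, 1.04 and 1.09 FPKM to 0.419, 0.399 and 0.413 FPKM, with all 3 transcripts lower (−1.23, limma adjusted p = 0.0120). None of these groups overlapped. XLOC_045589 was not called without cold replicate 2 (adjusted p 0.0503), XLOC_034666 without cold replicate 1 or 2 (0.0573 to 0.0634), and XLOC_050240 was lost when any 1 of 11 libraries was left out, all but Kongyu131 control replicate 1 (0.0512 to 0.126).

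Averaged over both cultivars, 10 of the 41 sums (24.4%) changed under cold, 5 higher and 5 lower, where 21.7% of all loci were called, 7.14% higher and 14.6% lower. At an unadjusted p under 0.05 there were 15 of the 41, and 372 of all 1036. The rises were 0.93 for XLOC_016321 (SE 0.194, limma adjusted p = 0.00929), 0.67 for XLOC_045589 (adjusted p = 0.0268), 0.64 for XLOC_023506 (adjusted p = 0.0499), 0.61 for XLOC_054088 (adjusted p = 0.0205) and 0.51 for XLOC_050240 (adjusted p = 0.0339). The falls were −1.44 for XLOC_039629 (adjusted p = 0.0129), −1.30 for XLOC_032177 (adjusted p = 0.00263), −1.17 for XLOC_034666 (adjusted p = 0.00432), −0.98 for XLOC_022039 (adjusted p = 0.00263) and −0.67 for XLOC_016981 (adjusted p = 0.00929). All p-values are from limma. Loci other than XLOC_016321, XLOC_045589, XLOC_039629 and XLOC_032177 were named here after their values were seen. The average combines the same libraries as the comparisons within cultivars. Median-ratio scaling moved the median change of all loci from −0.14 to −0.02, and the 41 loci from −0.12 to 0.03.

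XLOC_032177 was the locus called in both cultivars. Its 6 cold libraries, at 1.81, 2.20, 3.12, 1.51, 1.13 and 1.87 FPKM, were all below its 6 control libraries, at 3.79 to 6.12 FPKM. XLOC_016321 was higher in the 3 cold libraries of Dongnong422 too, at 5.52, 4.82 and 6.45 FPKM against 2.35, 4.90 and 2.73, but 1 control library lay within the cold range, and the change of 0.79 was not called there (limma adjusted p = 0.0817). XLOC_034666 stood at 3.91, 3.04 and 3.48 FPKM in Kongyu131 control and 1.92, 1.82 and 1.47 in cold libraries, a change of −0.96 that was not called (limma adjusted p = 0.0518).

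Several average calls depended on a setting or a library. XLOC_039629 changed by −2.58 with a pseudocount of 0.01 FPKM and by −0.43 with 1 FPKM, where it was not called (limma adjusted p = 0.0709). XLOC_023506 was lost with any 1 of 10 libraries left out, all but replicate 1 of both Kongyu131 groups (adjusted p 0.0694 to 0.109), and with a pseudocount of 0.01 FPKM (0.0558). XLOC_050240 was lost with any of 8 left out (0.0542 to 0.0773), which were replicates 2 and 3 of both Kongyu131 groups, Dongnong422 control replicates 1 and 3 and Dongnong422 cold replicates 1 and 2. XLOC_045589 was lost with any of 6 left out (0.0517 to 0.0640), which were Kongyu131 control replicates 2 and 3, Kongyu131 cold replicate 1, Dongnong422 control replicate 3 and Dongnong422 cold replicates 2 and 3, and XLOC_054088 without Kongyu131 control replicate 2 (0.0502).

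**Figure D3:**
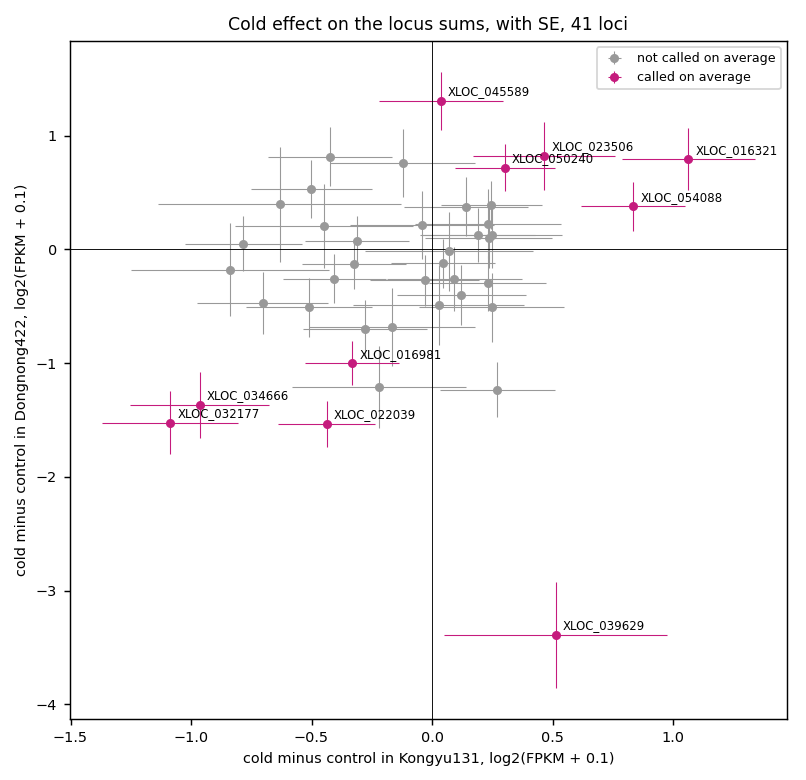
The change of each locus sum under cold in Dongnong422 (vertical axis) against that in Kongyu131 (horizontal axis), as differences of log2(FPKM + 0.1) with SE, with 1 point per locus and the 10 loci called on average named. XLOC_032177 and XLOC_034666 lie low on both axes, and XLOC_039629 lies far below the rest at −3.39 in Dongnong422 and 0.51 in Kongyu131.

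The cold effect differed between the cultivars for 1 of the 41 sums (2.44%), where 1.64% of all loci were called, 0.869% with a higher and 0.772% with a lower effect in Dongnong422. At an unadjusted p under 0.05 there were 8 of the 41, and 191 of all 1036. The locus was XLOC_039629, at 1.83, 1.12 and 1.31 FPKM in Kongyu131 control and 2.28, 1.50 and 2.44 FPKM in Kongyu131 cold libraries, with the Dongnong422 values given above. The Dongnong422 effect minus the Kongyu131 effect was −3.90 (SE 0.656, limma adjusted p = 0.0156). It was lost with Kongyu131 control replicate 3 or cold replicate 1 of that cultivar left out (adjusted p 0.0542 to 0.0560) or with a pseudocount of 0.01 FPKM (adjusted p = 0.0557). For XLOC_022039 the difference was −1.10 (adjusted p = 0.0846) and for XLOC_017564 −1.50 (adjusted p = 0.0518), neither called by limma. Both were named after their values were seen.

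Between cultivars in control leaves, 3 of the 41 sums (7.32%) differed, where 15.3% of all loci were called (8.59% higher and 6.76% lower), and all 3 were lower in Dongnong422. At an unadjusted p under 0.05 there were 5 of the 41, and 258 of all 1036. XLOC_028039 was at 1.40, 1.75 and 1.41 FPKM in Kongyu131 and was listed at 0 in all 3 Dongnong422 control libraries (limma adjusted p = 1.19e-07). XLOC_016981 was 17.9 ± 0.671 FPKM in Kongyu131 and 6.43 ± 0.521 FPKM in Dongnong422 (mean ± SD, n = 3), a difference of −1.46 on the log2 scale (SE 0.196, limma adjusted p = 0.000151). Its 4 transcripts were all lower on average. XLOC_045589, named after its values were seen, was 4.51 ± 0.901 and 2.09 ± 0.409 FPKM (−1.07, SE 0.257, limma adjusted p = 0.0133). It was not called without Kongyu131 control replicate 1 or Dongnong422 control replicate 3 (adjusted p 0.0511 to 0.0541).

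Between cultivars in cold-treated leaves, 7 of the 41 sums (17.1%) differed, 2 higher and 5 lower in Dongnong422, where 22.8% of all loci were called, 12.3% higher and 10.5% lower. At an unadjusted p under 0.05 there were 12 of the 41, and 365 of all 1036. These cold libraries also enter the comparisons with control. XLOC_010057 was higher in Dongnong422, at 10.2 ± 2.36 against 3.99 ± 0.773 FPKM (1.32, SE 0.258, limma adjusted p = 0.00302), with all 3 transcripts higher. XLOC_007583 was at 1.12, 1.00 and 1.00 FPKM in Dongnong422 and 0.430, 0.373 and 0.308 FPKM in Kongyu131 (1.29, SE 0.253, limma adjusted p = 0.00310).

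XLOC_016981 was again lower, at 3.20 ± 0.640 against 14.2 ± 1.13 FPKM (−2.13, SE 0.196, limma adjusted p = 5.60e-06). XLOC_039629 was near 0 in 2 of 3 Dongnong422 libraries, and its fitted difference of −3.93 (SE 0.464, limma adjusted p = 5.33e-05) depended on the pseudocount, at −6.27 with 0.01 FPKM and −1.53 with 1 FPKM. XLOC_028039 was 0.839, 0.951 and 0.732 FPKM in Kongyu131, and in Dongnong422 it was 0.0115 FPKM in 1 library and listed at 0 in the other two (limma adjusted p = 1.09e-06). The remaining loci were XLOC_022039 (−1.41, limma adjusted p = 0.000255, with 1 of 4 transcripts higher) and XLOC_017564 (−1.19, limma adjusted p = 0.00368). Both, and XLOC_028039, were named after their values were seen. All 7 calls held when any single library was left out.

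**Figure D4:**
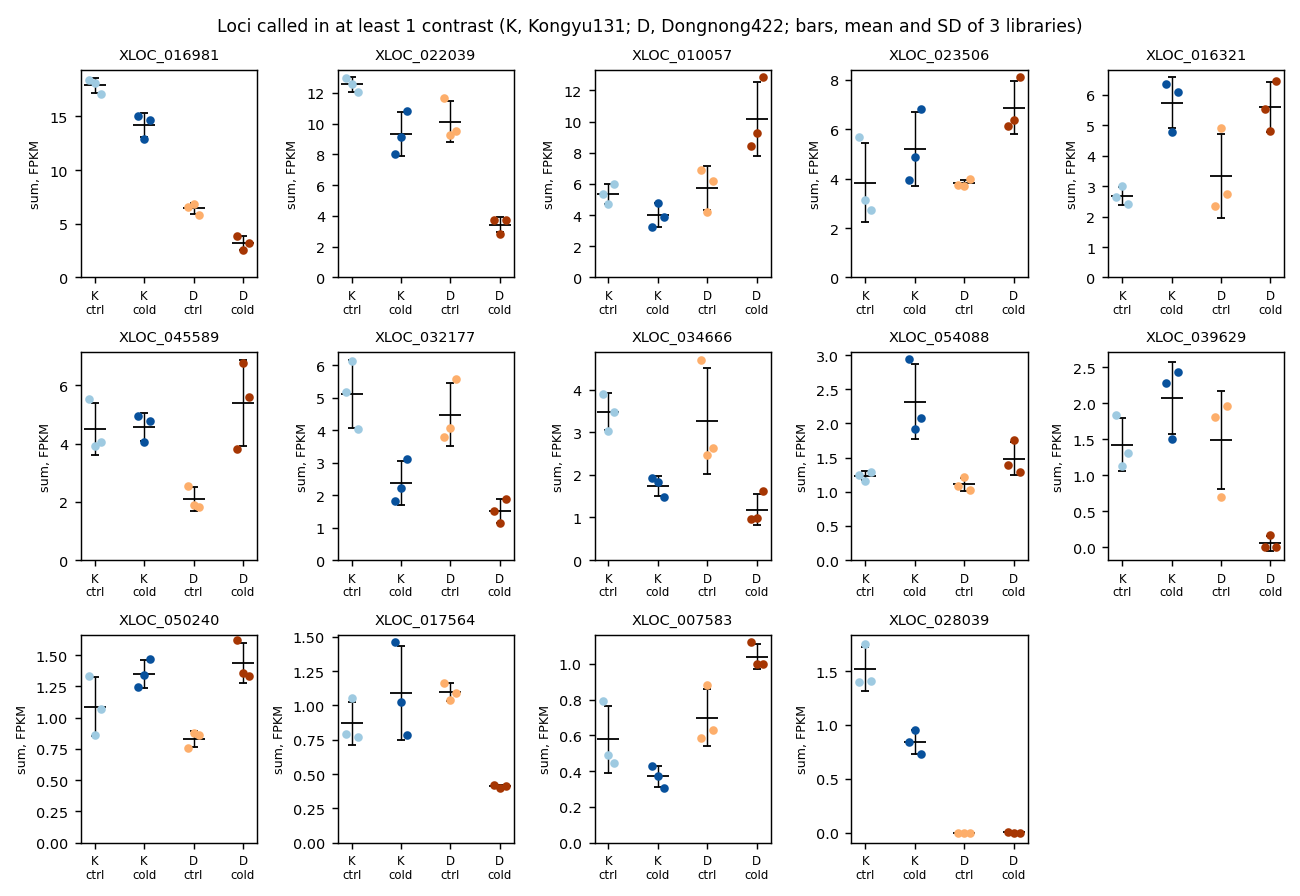
The sum of each of the 14 loci called in at least 1 comparison, in FPKM, with 1 point per library and bars for the mean and SD of 3 libraries in each of the 4 groups. XLOC_016981 has no overlap between its 4 groups, XLOC_032177 is low in both cold groups, and XLOC_028039 is at or near 0 in both Dongnong422 groups.

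In all, 14 of the 41 loci were called in at least 1 comparison and 27 in none. No such count is given over all loci tested, so it cannot be read as high or low. Among those 27, the lowest and highest changes under cold were −0.84 and 0.25 in Kongyu131, and −1.21 and 0.76 in Dongnong422. Differences between cultivars ran from −0.63 to 0.81 in control and from −0.74 to 1.32 in cold leaves. A p that missed the threshold does not show that these loci were level.

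Each locus had a leading transcript, the one with the highest mean share, but this lead was rarely fixed. The leading transcript held a median of 47.4% of its locus (20.3% to 80.1%), and more than 50% in 16 of 41 loci. It was the same transcript in all 4 groups in 15 loci, and in all 12 libraries in 2, LNC_000626 of XLOC_023506 (mean share 53.9%) and LNC_000107 of XLOC_006046 (49.3%). The highest mean shares were those of LNC_001390 in XLOC_054088 (80.1%), LNC_000411 in XLOC_016321 (73.1%) and LNC_000150 in XLOC_007583 (70.9%). At the other end, LNC_000360 of the 8-transcript locus XLOC_014980 held 20.3% on average and led in 1 library. In 29 of 484 pairs of locus and library (5.99%), 1 transcript held 90% or more.

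The leader differed between the cultivars in the same way in both treatments in 2 loci. In XLOC_037307, LNC_001005 led in Kongyu131 with mean shares of 44.8% in control and 52.0% in cold, and LNC_001006 led in Dongnong422 with 38.2% and 52.4%. In XLOC_006125, LNC_000116 led in Kongyu131 (33.9% and 40.5%) and LNC_000117 in Dongnong422 (39.6% and 37.9%). LNC_000117 held 27.2% and 29.3% in Kongyu131, and LNC_000116 held 24.0% and 35.1% in Dongnong422. None of these shares was called in the tests of shares. No locus changed its leader between control and cold in the same way in both cultivars.

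Shares were tested as the log2 ratio of a transcript to the rest of its locus, each plus 0.1 FPKM, for 153 of the 163 transcripts. The other 10 had a mean under 0.1 FPKM. In Kongyu131, cold changed 1 share (0.654% of 153, where 0.594% of all 505 transcripts tested were called). Of the 153, 14 were at an unadjusted p under 0.05, and of all 505, 54. In Dongnong422 cold changed 0 shares in limma, where 0.198% of all were called. There, 20 of the 153 and 59 of all 505 were at an unadjusted p under 0.05. Averaged over cultivars 1 share changed, where 1.39% of all were called, and the effects differed between cultivars for 1, where 0.198% were called. Between cultivars, 3 shares differed in control (1.96%, with 4.16% of all called) and 2 in cold leaves (1.31%, with 1.58% of all called). The called shares belonged to 5 transcripts of 3 loci, which are given in turn.

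In XLOC_039629 the transcript that carried the locus differed between groups. LNC_001049 held 57.6%, 100% and 100% of the sum in Kongyu131 control libraries and 12.6%, 21.9% and 25.1% in Kongyu131 cold libraries. It was under 0.001 FPKM in all 6 Dongnong422 libraries. Its share fell under cold in Kongyu131 (−4.42, SE 0.845, limma adjusted p = 0.0486) and was lower in Dongnong422 than in Kongyu131 in control leaves (−6.48, SE 0.845, limma adjusted p = 0.00174).

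LNC_001050 held 47.0%, 78.1% and 41.6% in Kongyu131 cold libraries and 11.8% or less in the controls, and its share rose under cold on average (3.21, SE 0.620, limma adjusted p = 0.0263). LNC_001048 held 100%, 77.2% and 100% in Dongnong422 control libraries and 30.5% or less in Kongyu131 control libraries (6.13, SE 1.12, limma adjusted p = 0.0113). The difference of cold effects for LNC_001049 was 7.81 (SE 1.20, limma adjusted p = 0.0223). This transcript was under 0.001 FPKM in every Dongnong422 library, so its ratio there moved only with the fall of the locus sum (−3.39). That part of the difference is not a change of its share. In 2 of 3 Dongnong422 cold libraries the locus itself was near 0, so there the ratio is that of the pseudocounts.

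Values near 0 make these log ratios depend on the pseudocount. With 0.01 and 1 FPKM, the cultivar difference in control leaves was −11.86 and −2.11 for LNC_001049 and 10.62 and 2.0995 for LNC_001048, called with each. The cold effect of LNC_001049 in Kongyu131 was −6.81 and −1.75, the average effect of LNC_001050 was 5.08 and 1.16, and the difference of effects for LNC_001049 was 12.50 and 2.94. These 3 were not called with 0.01 FPKM (limma adjusted p = 0.171, 0.115 and 0.0925) nor on the arcsine scale of the share (0.0564, 0.301 and 0.267). The fall of LNC_001049 in Kongyu131 was lost with any 1 of 11 libraries left out, all but Kongyu131 control replicate 1 (adjusted p 0.0534 to 0.211). The rise of LNC_001050 was lost with any of 9 left out, all but Kongyu131 control replicate 1 and replicate 2 of both Dongnong422 groups (0.0599 to 0.0840). The difference for LNC_001049 was lost with any of 9 left out, all but Kongyu131 control replicate 1, Kongyu131 cold replicate 2 and Dongnong422 cold replicate 2 (0.0563 to 0.0992). The higher share of LNC_001048 was lost without Kongyu131 control replicate 2 or Dongnong422 control replicate 1 or 3 (0.0556 to 0.0642). The cultivar difference of LNC_001049 in control leaves held whichever library was left out.

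In the 8-transcript locus XLOC_014980, LNC_000363 reached 0.1 FPKM in Kongyu131 libraries only. It was at 0.260, 0.591 and 0.105 FPKM in Kongyu131 control and 0.486, 0.816 and 0.830 FPKM in Kongyu131 cold libraries, and under 0.001 FPKM in all 6 Dongnong422 libraries, where the locus sum was 2.75 FPKM or more. Its share of the locus in Kongyu131 was 6.40% to 29.5%. The share was lower in Dongnong422 in control (−2.49, SE 0.559, limma adjusted p = 0.0313) and in cold leaves (−3.65, SE 0.559, limma adjusted p = 0.00559). Since the transcript was near 0 in Dongnong422, these values depend on the pseudocount, at −5.35 and −6.82 with 0.01 FPKM and −0.82 and −1.27 with 1 FPKM. The cold call held with each, and the control call was lost with 1 FPKM (limma adjusted p = 0.0887) and on the arcsine scale (0.0557). It was also lost without Kongyu131 control replicate 2, any Dongnong422 control library or Dongnong422 cold replicate 3 (adjusted p 0.0526 to 0.111).

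In XLOC_032177, the share of LNC_000861 was 43.4%, 45.4% and 46.4% in control and 57.0%, 57.0% and 42.4% in cold libraries of Kongyu131, and 55.7%, 50.5% and 49.7% in Dongnong422 control libraries. In Dongnong422 cold libraries it was 27.8%, 17.0% and 20.5%, below all others, while LNC_000859 held 57.9%, 83.0% and 69.5%. The share was lower in Dongnong422 than in Kongyu131 in cold leaves (−1.69, SE 0.331, limma adjusted p = 0.0260). Within Dongnong422 the change under cold was −1.69 as well, the smallest p of the 153 there, and was not called (limma adjusted p = 0.0910). The cultivar call was lost with replicate 1 or 2 of Kongyu131 cold, replicate 3 of Dongnong422 control, or replicate 2 or 3 of Dongnong422 cold left out (adjusted p 0.0523 to 0.122), and when shares were used only where the locus sum was at least 0.1 FPKM (0.0553). That minimum removed no value of this locus, whose sum was 1.13 FPKM or more in every library.

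Altogether 7 transcripts were under 0.001 FPKM in all 6 libraries of a cultivar. Of these, LNC_000363, LNC_001049, LNC_000747 and LNC_000748 were so in Dongnong422, the last pair in XLOC_028039, whose sum was itself at or near 0 there. LNC_000422, LNC_000537 and LNC_000682 were so in Kongyu131, and reached 0.1 FPKM in 2 Dongnong422 libraries each. This list was drawn up after the values were seen.

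In some loci the lead passed to another transcript in single libraries. In XLOC_016321, LNC_000411 held 72.7% to 88.4% in 11 libraries and 0.746% in Kongyu131 cold replicate 3, where LNC_000410 held 79.0% (4.81 FPKM). LNC_000410 held 0.157% to 4.50% elsewhere. The sum in that library was 6.09 FPKM, between the 4.78 and 6.37 FPKM of its replicates. In XLOC_036460, LNC_000984 held 41.8% to 67.6% in 8 libraries and 4.30% or less in the other 4, which were Kongyu131 cold replicate 2, Dongnong422 control replicates 1 and 2 and Dongnong422 cold replicate 3. The sums in these 4 libraries were 4.30, 5.24, 2.78 and 3.90 FPKM, and 2.78 FPKM was the lowest of the 12. By contrast, XLOC_010057 had the same leader in 11 libraries, with LNC_000203 at 36.6% to 59.4%, LNC_000202 at 21.6% to 37.7% and LNC_000204 at 10.3% to 28.8%.

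**Figure D5:**
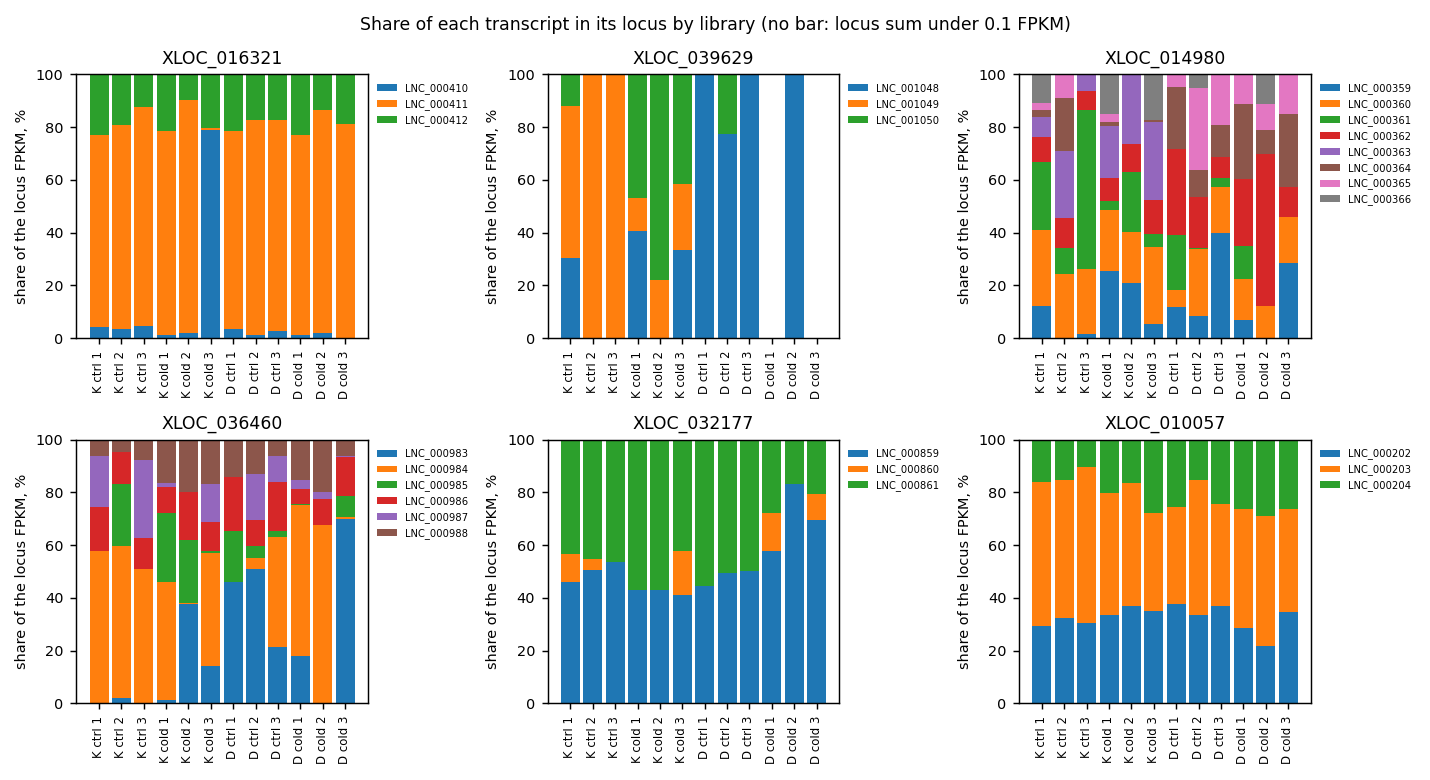
The share of each transcript in the FPKM of its locus, in percent, in each of the 12 libraries (K, Kongyu131; D, Dongnong422) for 6 loci chosen after their values were seen. Bars are stacked to 100%, no bar is drawn where the locus was under 0.1 FPKM, and XLOC_016321 shows 1 library in which LNC_000410 in place of LNC_000411 holds most of the sum.

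The 41 loci were set beside the 51 lincRNA loci with 3 or more transcripts (237 transcripts) and the 62 antisense loci with 2 transcripts. The share of sums called under cold was 1.96% and 3.23% in these groups in Kongyu131, and 19.6% and 17.7% in Dongnong422. Averaged over cultivars it was 31.4% and 11.3%. Between cultivars it was 17.6% and 14.5% in control leaves, and 19.6% and 21.0% in cold leaves. The leading transcript was the same in all 4 groups in 15 of 51 of the lincRNA loci, with a median share of 41.8%. Among loci with exactly 3 transcripts the median leading share was 52.7% for antisense and 53.6% for lincRNA loci. These differences between kinds of locus were not tested, and none is claimed to be particular to the antisense loci.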

How the data were processed

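Each library came as a table deposited by the authors, which pairs every transcript with its locus, its class and its FPKM. TopHat2 2.0.9 and Cufflinks 2.1.1 were used, per the submitters' processing notes. Not given in the sources used here: settings, genome build, annotation and whether fragments were assigned by strand. Without strand, reads of an antisense transcript and of the gene opposite cannot be told apart. Libraries were strand-specific and depleted of ribosomal RNA, per the labels' protocols.

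The 12 tables were joined, and 1 blank row was dropped. FPKM are not counts, and the depth is unknown. Sums were tested as log2(sum + 0.1) for 1036 of 1039 loci with a mean of at least 0.1 FPKM (all 41 antisense loci), and shares as log2((transcript + 0.1)/(rest + 0.1)) for 505 transcripts. Fold changes on this scale understate those of low loci. limma 3.58.1 (R 4.3.3) fitted 4 group means to 12 libraries, with a variance trend and Benjamini-Hochberg adjustment over all features, two-sided. The members, lists and tests were chosen with earlier results of these data known. Named loci are, per comparison, the called ones with the 2 largest rises and the 2 largest falls, provided that a group reached 1 FPKM. Other loci named in these comparisons were chosen after their values were seen.

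On 20 simulated data sets with 200 planted changes, the test of 1036 sums for cold in Kongyu131 recovered 42.2% of log2 changes of 1 and 79.6% of those of 2, with 4.24% of calls false. It recovered 19.7% and 58.7% for the difference between cold effects. The test of 505 shares recovered 18.3% and 53% for cold in Kongyu131. The simulated noise was normal, with the mean and SD of each feature, and independent between features. It did not model the switches of transcripts to near 0 or the ties between shares of a locus. Whether these rates hold for the data was not tested. Alternatives were pseudocounts of 0.01 and 1 FPKM, median-ratio scaling, a filter at a mean of 1 FPKM, an arcsine scale for shares, the replicate number as a block, and leaving out each library.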

Additional observations from a re-analysis of the deposited data

Results flagged for a closer look

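XLOC_039629 stood out because its cold effect on the locus sum differed between cultivars in a tested contrast, by −3.90 on the log2(FPKM + 0.1) scale (Dongnong422 minus Kongyu131, limma adjusted p = 0.0156). The difference was −1.54 with a pseudocount of 1 FPKM. The share of its transcript LNC_001049 differed between the cold effects by 7.81 (limma adjusted p = 0.0223), with the locus near 0 in 2 of 3 Dongnong422 cold libraries. The transcript was under 0.001 FPKM in every Dongnong422 library, so this difference includes the fall of the sum there.

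The sum of XLOC_007583 moved down in every Kongyu131 cold library and up in every Dongnong422 cold library relative to the controls of the cultivar. It was 0.793, 0.492 and 0.447 FPKM in control and 0.430, 0.373 and 0.308 in cold libraries of Kongyu131, and 0.588, 0.881 and 0.628 in Dongnong422 control and 1.12, 1.00 and 1.00 in Dongnong422 cold libraries. The difference of effects was 1.03 (SE 0.357) and was not called by limma (adjusted p = 0.161).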

How the results depend on the processing

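Of 571 recomputed values of called sums, 503 stayed called in the same direction, 68 lost the call and 0 changed direction. For called shares 87 of 145 stayed, 58 lost the call and 0 changed direction. With median-ratio scaling, which was run for sums, none of their calls was lost.

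The count of sums changed by cold in Kongyu131, 3 as reported, was 5 with a pseudocount of 1 FPKM. The difference of cold effects was called for 0 sums with a pseudocount of 0.01 FPKM (7 at an unadjusted p under 0.05). The cultivar difference in cold leaves was called for 4 sums at a mean of at least 1 FPKM. That filter left 33 of the 41 loci. XLOC_007583, XLOC_017564 and XLOC_028039, called above, were not tested under it. For shares it left 16 of the 153 transcripts and 62 of all 505. Counts under this filter are therefore not on the same members as those reported. For shares changed by cold in Kongyu131 the count was 2 at a pseudocount of 1 FPKM, but 0 at 0.01 FPKM, with a mean of at least 1 FPKM, with the arcsine scale and where the locus sum had to reach 0.1 FPKM in a library, an alternative chosen after seeing the data (15, 2, 15 and 12 at an unadjusted p under 0.05 in limma). In Dongnong422 it was 3 with a pseudocount of 1 FPKM and 2 with a mean of at least 1 FPKM. On average it was 3 at a pseudocount of 1 FPKM, but 0 at 0.01 FPKM, with a mean of at least 1 FPKM and with the locus minimum (14, 3 and 16 at an unadjusted p). The difference for shares was 0 with 0.01 FPKM, arcsine and the locus minimum (12, 13 and 12 at an unadjusted p). The cultivar counts were 1 in control with a mean of at least 1 FPKM, and in cold 5 with a pseudocount of 1 FPKM, 4 with arcsine and 1 with the locus minimum. Except where stated, counts in this section, called or at an unadjusted p, are given without those over all features. They are not read against them.

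Leaving out each library in turn gave, for sums, 0 to 4 called under cold in Kongyu131, 5 to 9 in Dongnong422, 6 to 11 on average, 0 to 2 for the difference, 2 to 3 between cultivars in control and 7 to 8 in cold leaves. For shares it gave 0 to 1, 0 to 1, 0 to 1, 0 to 2, 1 to 4 and 1 to 3. The 0 for cold sums in Kongyu131 came without control replicate 1 or 2 or cold replicate 1 or 2 of that cultivar. Over all 1036 loci the calls fell as well, from 124 to 74, 37, 37 and 27 in that order.

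The replicate numbers are shared by the groups. The deviations of same-numbered libraries correlated at −0.148 to 0.115 (18 pairs, 1 over 0.1). Those of different-numbered libraries correlated at −0.166 to 0.166 (36 pairs, 5 over 0.1). Such correlations cannot show whether same-numbered libraries were handled together, so no conclusion on pairing is drawn. With the replicate block, cold called 0 sums in Kongyu131 (6 at an unadjusted p under 0.05), 0 shares in Kongyu131 (12) and 0 shares on average (15). It called 7 sums in Dongnong422, without XLOC_050240. On average it called 7 sums, 2 higher and 5 lower, without XLOC_023506, XLOC_045589 and XLOC_050240. Over all loci, the block left 71 sums called in Kongyu131, 99 in Dongnong422 and 167 on average, against 124, 133 and 225 without it. Between cultivars in cold leaves 1 share was called, and the call of LNC_000861 was lost. In control leaves the block ended the call of LNC_000363 (limma adjusted p = 0.0699). Depth is unknown, which limits every value near 0.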
